A study of Homo sapiens with 18 samples.

Results

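The RNA of 10 HNRNP genes was followed from newly made to steady-state RNA in HEK293 cells, a human embryonic kidney line. They were HNRNPA1, HNRNPA2B1, HNRNPC, HNRNPD, HNRNPDL, HNRNPH1, HNRNPK, HNRNPL, HNRNPM and HNRNPU, 10 of the 63568 gene entries of the authors' expression table. They were chosen by name as abundant RNA-binding proteins that regulate their own splicing. All 10 had mature and primary transcript values in every library, and they held 132 of the 21782 introns in the authors' intron table.

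Cells of the labelled groups received 4-thiouridine at 500 µM, a uridine analogue built into RNA made after its addition, for 7.5, 15, 30, 45 or 60 min. Labelled RNA was biotinylated and purified, and 3 libraries were sequenced per time, 15 in all. Total RNA without that purification gave 3 more libraries: 1 selected for poly(A), 1 depleted of ribosomal RNA with RNase H and 1 depleted with Ribo-Zero. The total group was thus not a set of like replicates, and its spread and its differences from labelled RNA hold the selection method. Labelled RNA comes from an enrichment and can carry unlabelled RNA, a share that was not tested here. The labels do not say whether libraries of a group were separate cultures, and the p-values then reflect only a spread between libraries that may be technical.

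HnRNPs are nuclear proteins that coat nascent pre-mRNA and steer splicing, export, stability and translation. Several are known to limit their own output: high protein levels change the splicing of their own transcript, often by adding an exon with a stop codon or by splicing in the 3′ UTR, and nonsense-mediated decay then removes the product. HnRNP A1, hnRNP A2/B1, hnRNP D and hnRNP DL form a related group with paired RNA recognition motifs. HnRNP C binds uridine tracts and packages nascent RNA, hnRNP H binds guanosine runs, hnRNP K binds cytidine-rich RNA and hnRNP L binds CA repeats. HnRNP M regulates alternative exons, and hnRNP U, also called SAF-A, ties RNA to chromatin.

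Splice site letters of the introns that the results turn on are given here, because they were among the least excised of their genes. Only introns with sequence in a GENCODE 29 transcript (GRCh38) could be shown, that is, introns that some annotated transcript keeps. Each 5′ site has 3 exon bases and 6 intron bases, each 3′ site has 20 intron bases and 3 exon bases, and capitals mark the first 2 and last 2 intron bases. The last pair of lines shows a well excised HNRNPU intron, with the rare GC start, for comparison.
HNRNPH1 945-base intron, 5′ site: cagGTgggg
HNRNPH1 945-base intron, 3′ site: ccttatgaacaatgctttAGgta
HNRNPH1 206-base intron, 5′ site: aagGTttga
HNRNPH1 206-base intron, 3′ site: attctaagcacctctttcAGtat
HNRNPDL 1153-base intron, 5′ site: cagGTgtgt
HNRNPDL 1153-base intron, 3′ site: tattttgtttttgtttttAGgag
HNRNPL 1053-base intron, 5′ site: atgGTaaga
HNRNPL 1053-base intron, 3′ site: actgttttctctctccacAGgtg
HNRNPA1 231-base intron, 5′ site: tagGTaagt
HNRNPA1 231-base intron, 3′ site: tattccatattgttcaacAGgaa
HNRNPA2B1 156-base intron, 5′ site: tggGTaagt
HNRNPA2B1 156-base intron, 3′ site: ctttacttctgttgaaacAGgct
HNRNPU 1986-base intron, 5′ site: cttGTaagt
HNRNPU 1986-base intron, 3′ site: agtatttgatataattacAGata
HNRNPU 298-base intron, 5′ site: aagGCatgg
HNRNPU 298-base intron, 3′ site: tatgactttgtttcctgcAGgaa

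Values were the authors' TPM, transcripts per 1000000, for mature RNA (the spliced isoforms of a gene) and primary RNA (an isoform that spans the whole locus). TPM are per length and carry no read depth, so the depth is unknown. Labelled libraries had mature RNA of 15159 to 20407 genes, the fewest in labelled 45 min replicate 2. Total libraries had that of 22906 to 24470 genes. Of the HEK293 markers VIM, KRT8 and KRT18 were at means of 781, 134 and 67.5 TPM in total RNA, whereas NEFM was at 0.163 and PAX2 at 0.927. Summed mature TPM of 13 markers of other cell types were 5.55 to 23.2 in total libraries and 1.92 to 18.3 in labelled ones. In total RNA 2 of the 13 averaged at least 1 TPM, HBA1 at 10.8 and COL1A1 at 1.88, both above NEFM and PAX2. Of the 13, 3 (CD3E, HBB and INS) were at 0 in all 18 libraries. Reads of processed pseudogenes could be split with their parent genes: the 74 listed HNRNPA1 pseudogenes summed to at most 3.14% of HNRNPA1, the 9 of HNRNPC to 2.40% and the 3 of HNRNPH1 to 3.48% in the library where each share was highest.

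Mature RNA was first compared between 60 and 7.5 min of labelling. At 60 min 5 of the 10 genes (HNRNPL, HNRNPDL, HNRNPH1, HNRNPK and HNRNPA1) were higher and 0 were lower, by limma on log2(TPM + 1) with Benjamini-Hochberg adjustment over 16739 genes at 0.05. Over all genes tested, 15.8% were higher and 4.21% lower. The median log2 difference was 0.59 over the 10 genes and 0.24 over all genes. When libraries were scaled so that the median of all genes lay near 0 (-0.05), 3 of the 10 remained higher (HNRNPL, HNRNPDL and HNRNPH1, against 7.74% of all genes, with 7.81% lower), and values here are to be read relative to that shift. Without that scaling, HNRNPU had an unadjusted p of 0.0389 (limma) and did not pass after adjustment.

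HNRNPL, a regulator of exon inclusion, had 678, 539 and 552 mature TPM in the 60 min libraries, against 269, 191 and 215 in the 7.5 min libraries. Its log2 difference was 1.39 ± 0.181 (SE; adjusted p = 0.000105, limma). The time course was a step: the means of 3 libraries (with SD) were 225 ± 40.1 TPM after 7.5 min, 293 ± 11.6 after 15 min, 628 ± 74.1 after 30 min, 608 ± 111 after 45 min and 590 ± 76.6 after 60 min. No library of 30 min or later was below any earlier library.

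HNRNPDL, a close relative of hnRNP D, had 290, 304 and 350 mature TPM at 60 min and 111, 122 and 150 TPM at 7.5 min. The groups did not overlap, and the log2 difference was 1.30 ± 0.239 (SE; adjusted p = 0.00139, limma). HNRNPH1 had 639, 817 and 1049 mature TPM at 60 min and 351, 391 and 414 TPM at 7.5 min, again without overlap, a log2 difference of 1.09 ± 0.220 (SE; adjusted p = 0.00274, limma).

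HNRNPK, which also acts in transcription and translation, had 344, 359 and 438 mature TPM at 60 min and 256, 190 and 231 TPM at 7.5 min. HNRNPA1, the most abundant of the 10, had 952, 1073 and 1300 mature TPM at 60 min and 751, 586 and 850 TPM at 7.5 min. Neither pair of groups overlapped, and the log2 differences were 0.75 ± 0.210 and 0.61 ± 0.186 (SE; adjusted p = 0.0196 and 0.0305, limma). These 2 calls were the less firm ones: both were lost with median-ratio scaling (log2 differences 0.41 and 0.26), and that of HNRNPA1 with no low filter as well (adjusted p = 0.0878, limma). HNRNPK also lost its call without labelled 60 min replicate 3 or 7.5 min replicate 2 (adjusted p = 0.0860 and 0.0814, limma). HNRNPA1 lost it without 60 min replicate 2 or 3 or 7.5 min replicate 1 or 2 (adjusted p 0.0554 to 0.135, limma).

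HNRNPU had 491, 795 and 832 mature TPM at 60 min, against 481, 439 and 474 at 7.5 min, and its log2 difference of 0.57 ± 0.250 missed the threshold (SE; adjusted p = 0.131, limma). Without the low 60 min replicate 1 it passed, at a log2 difference of 0.81 (adjusted p = 0.0472). HNRNPA2B1 was spread most, with 308, 679 and 942 mature TPM at 60 min and 472, 534 and 603 TPM at 7.5 min. The remaining log2 differences were 0.12 for HNRNPA2B1, 0.07 for HNRNPM, -0.07 for HNRNPC and -0.16 for HNRNPD, with adjusted p from 0.793 to 0.890 (limma). In all 4 the groups overlapped, and each of the 4 changed sign under at least 1 alternative.

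HNRNPC, the uridine-tract binder, had the course least like that of the others. Its mature mean over 3 libraries (with SD) was 512 ± 72.8 TPM after 7.5 min, dipped to 388 ± 28.1 TPM after 30 min and was 488 ± 67.8 TPM after 60 min. Across the 15 labelled libraries its standardized profile had a Pearson r of 0.21 with the mean profile of the other 9 genes, against 0.50 to 0.91 for each of those 9, which share libraries. By rank among all genes, HNRNPA1 stood at 38 at 60 min and HNRNPM at 434, the highest and lowest of the 10.

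**Figure D1:**
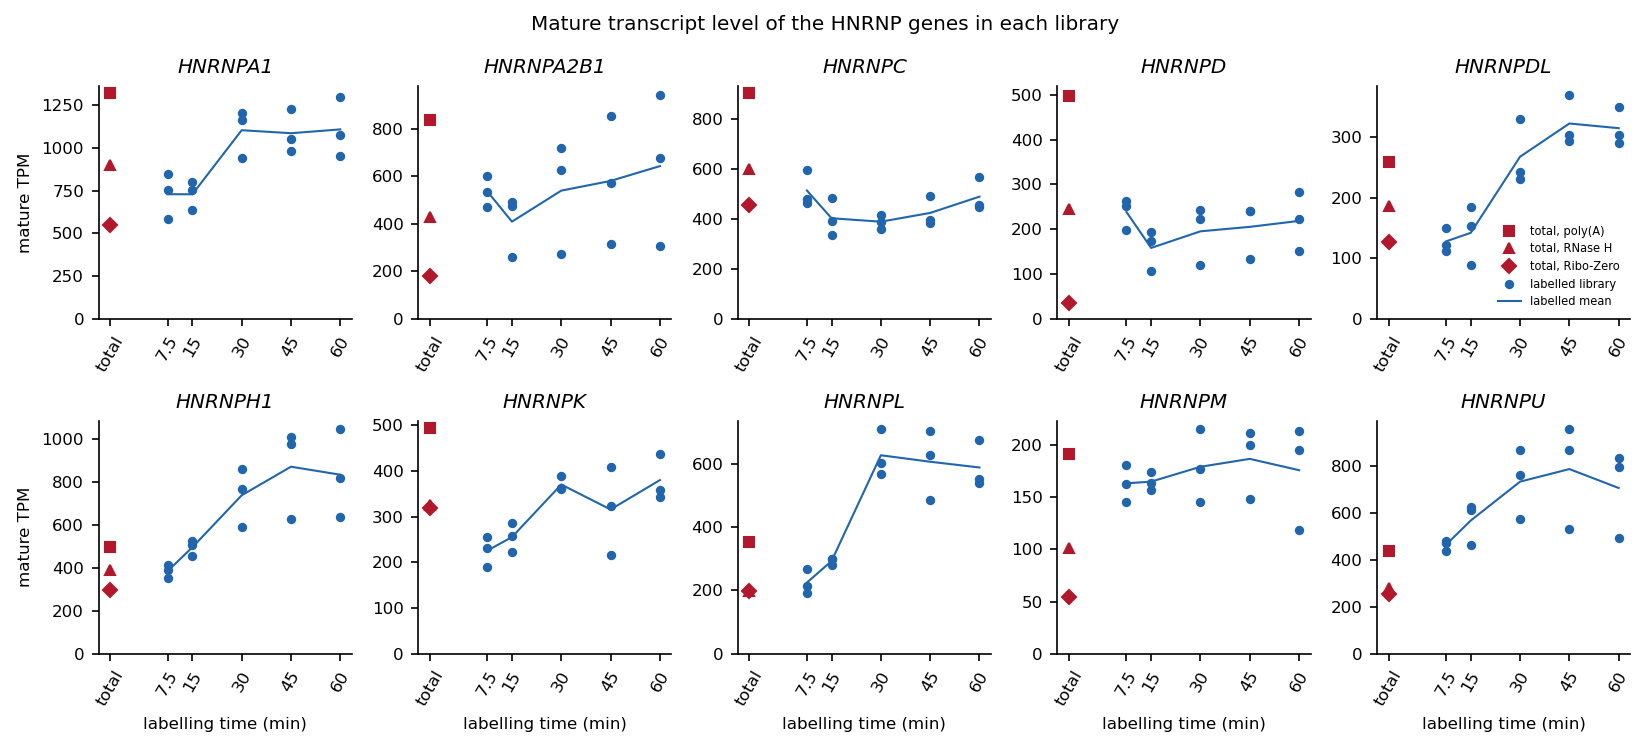
Mature transcript level (TPM, linear axes from 0) of each HNRNP gene in every library. Blue points are labelled libraries by labelling time in minutes with a line through the means of 3, and red symbols are the total RNA libraries by selection method. HNRNPL, HNRNPDL and HNRNPH1 lie higher at 60 than at 7.5 min without overlap, and HNRNPD spans 35.8 to 497 TPM in total RNA.

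The genes whose mature profile over the 15 labelled libraries was most like the mean standardized profile of the 10, among 10127 genes with at least 10 TPM on average, were RABEP1 (r = 0.97), IPO7 (0.95), DDX17 (0.95), CKAP5 (0.95) and BZW1 (0.95). DDX17, an RNA helicase, averaged 395 mature TPM at 60 min and 188 at 7.5 min. These correlations describe shared libraries and times only.

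Primary RNA of the same genes went the other way. At 60 against 7.5 min, 9 of the 10 were lower and 0 were higher (limma on log2(TPM + 1), adjusted over 14497 genes), where 75% of all genes were lower and 0.635% higher. The median log2 difference was -1.42 over the 10 genes and -1.15 over all genes. With the libraries scaled so that the median of all genes lay near 0 (0.04), 3 of the 10 were lower (HNRNPC, HNRNPU and HNRNPA2B1), 1 was higher (HNRNPH1), against 21.8% of all genes lower and 21.9% higher. HNRNPA1, HNRNPDL, HNRNPK, HNRNPL and HNRNPM changed sign under that scaling, and the 9 calls are to be read relative to the shift of all genes.

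HNRNPH1 was the gene that did not pass. Its primary TPM were 41.4, 48.9 and 56.3 at 60 min, against 43.7, 47.8 and 50.7 at 7.5 min, so the groups overlapped. The log2 difference was 0.03 ± 0.204 (SE; adjusted p = 0.885, limma), which stood at the 94.1 percentile of all genes. With median-ratio scaling it was 1.52 (adjusted p = 0.000185, limma). Its primary mean was highest at 30 min, at 64.7 ± 9.03 TPM (SD, n = 3).

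HNRNPC was at the other end. It had 11.5, 29.4 and 37.3 primary TPM at 60 min and 101, 117 and 130 TPM at 7.5 min, with no overlap and a log2 difference of -2.25 ± 0.475 (SE; adjusted p = 0.000754, limma). It stood at the 3.20 percentile of all genes, and stayed lower with median-ratio scaling (log2 difference -0.78). HNRNPU and HNRNPL bounded the rest, at log2 differences of -1.93 and -0.85. HNRNPL had 70.3, 81.4 and 80.7 primary TPM at 60 min and 157, 117 and 151 TPM at 7.5 min, and its mean at 30 min was still 158 ± 24.2 TPM (SD, n = 3).

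Primary TPM divided by the sum of primary and mature TPM is called the unspliced share here. It rests on RNA assigned to the isoform that spans the whole locus and does not measure single introns. Its median over the 10 genes was 9.74%, 10.1% and 9.14% in the 60 min libraries and 30.5%, 30.7% and 30.1% in the 7.5 min libraries. Over 13757 genes the library medians averaged 14.8% at 60 min and 38.9% at 7.5 min. The ratio of primary to mature RNA was lower at 60 min for all 10 genes (limma on log2((primary + 0.1)/(mature + 0.1))), where 62.8% of all genes were lower and 1.09% higher. The median log2 difference was -2.10 over the 10 genes and -1.81 over all genes. Centred on the library median, 1 of the 10 was lower (HNRNPU, -0.68), 1 was higher (HNRNPH1, 0.78, adjusted p = 0.0447, limma), and HNRNPD and HNRNPM changed sign without a call.

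HNRNPDL had the highest mean unspliced share at the start. Its share was 11.7%, 13.6% and 11.8% at 60 min, against 54.7%, 44.7% and 39.2% at 7.5 min, and the log2 difference of the ratio was -2.60 ± 0.286 (SE; adjusted p = 1.4e-05, limma). That of HNRNPU, -2.52 ± 0.218, was within 1 SE of it, and HNRNPU was lower than HNRNPDL without labelled 60 min replicate 3 (-2.59 and -2.57) or 7.5 min replicate 1 (-2.61 and -2.36). HNRNPH1 had the lowest share at the start and the smallest fall, with 6.08%, 5.65% and 5.10% at 60 min and 11.1%, 10.9% and 10.9% at 7.5 min. Its ratio fell by 1.05 on the log2 scale (SE 0.218; adjusted p = 0.000947, limma). HNRNPC reached the lowest mean share at 60 min, 4.94% ± 2.09 (SD, n = 3), but this rests on labelled 60 min replicate 1, at 2.53%. In replicates 2 and 3 HNRNPC had 6.10% and 6.18%, above HNRNPH1.

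**Figure D2:**
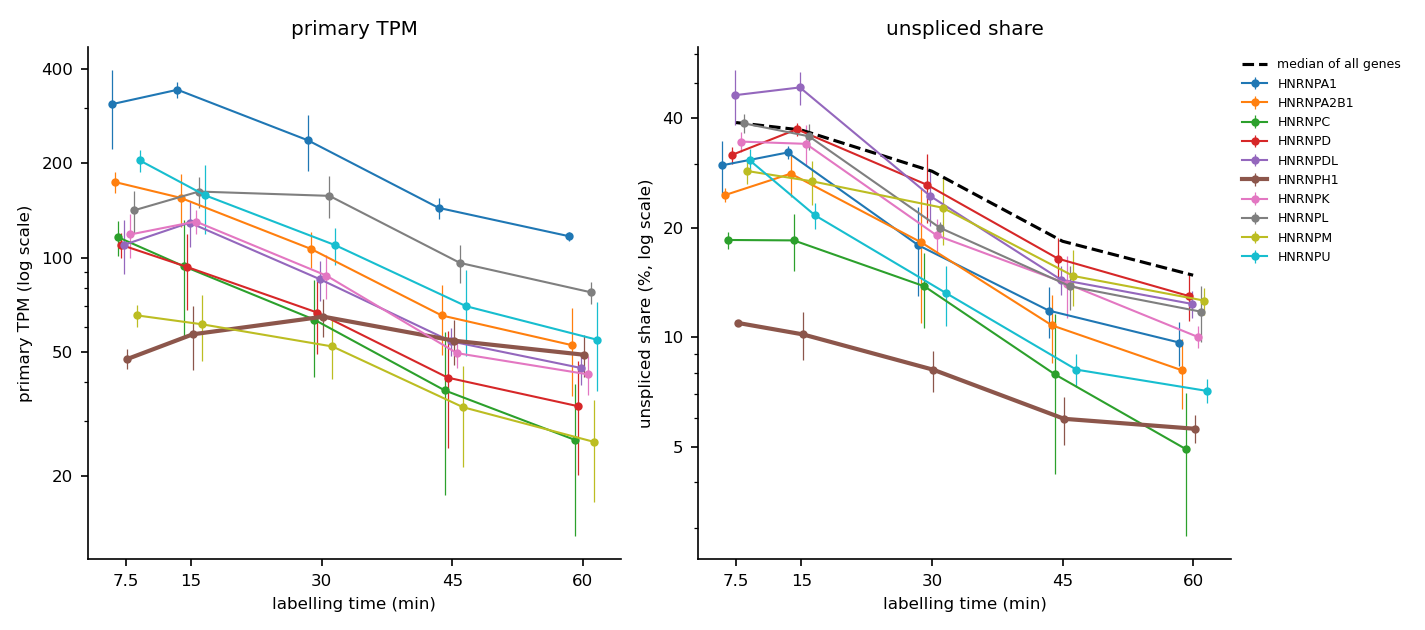
Primary TPM (left) and unspliced share in percent (right), both on log axes, against labelling time in minutes for each HNRNP gene; points are means of 3 libraries, bars are SD, and points are shifted sideways for visibility. The dashed line is the median of all genes, and HNRNPH1 (thick line) stays near 50 primary TPM while the others decline.

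Total RNA was then set against RNA labelled for 60 min. Mature levels of 4 of the 10 genes were lower in total RNA (HNRNPL, HNRNPU, HNRNPH1 and HNRNPDL) and 0 were higher (limma, 16580 genes), where 40.1% of all genes were lower and 5.24% higher. The median log2 difference was -0.64 over the 10 genes and -0.84 over all genes. With median-ratio scaling, under which the median of all genes was -0.06, 0 were lower and 3 were higher (HNRNPC at 1.38, HNRNPK at 0.98 and HNRNPA1 at 0.67), against 17.2% of all genes higher and 15.2% lower, and HNRNPA1, HNRNPA2B1, HNRNPD, HNRNPDL, HNRNPK and HNRNPM changed sign. HNRNPL had the lowest and HNRNPC the highest log2 difference of the 10 under both scalings.

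HNRNPL had 352, 197 and 198 mature TPM in the poly(A), RNase H and Ribo-Zero libraries of total RNA, against 678, 539 and 552 after 60 min of labelling. The groups did not overlap, and the log2 difference was -1.29 ± 0.260 (SE; adjusted p = 0.000617, limma). HNRNPH1 had 498, 392 and 297 mature TPM in total RNA, also below all 60 min libraries, at -1.08 ± 0.281 (SE; adjusted p = 0.00448, limma). HNRNPU had 437, 278 and 256 mature TPM in total RNA, below 491 to 832 at 60 min (log2 difference -1.12, adjusted p = 0.00579, limma). HNRNPDL had 259, 187 and 127 mature TPM in total RNA, and its log2 difference of -0.77 (adjusted p = 0.0379, limma) passed only narrowly: it was lost without total replicate 2 or 3 or any 60 min library (adjusted p 0.0576 to 0.168) and with no low filter (0.0679). HNRNPM, at -0.74 (adjusted p = 0.0877, limma), passed without total replicate 1 or 60 min replicate 1 (adjusted p = 0.0036 and 0.0399). The log2 differences of HNRNPL, HNRNPU, HNRNPH1 and HNRNPDL stood at the 31.4, 37.8, 39.7 and 52.7 percentile of all genes. With median-ratio scaling these genes were not called lower.

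HNRNPC had the one positive log2 difference. It had 902, 599 and 454 mature TPM in total libraries and 445, 453 and 566 TPM at 60 min, which overlapped, and the difference of 0.37 ± 0.265 did not pass (SE; adjusted p = 0.268, limma). HNRNPD and HNRNPA2B1 were spread widely over the 3 total libraries, as was HNRNPM (191, 101 and 54.3 TPM), and method and library cannot be told apart. HNRNPD, also called AUF1 and known for binding AU-rich elements, had 497 mature TPM with poly(A) selection, 245 after RNase H and 35.8 after Ribo-Zero, against 151, 223 and 282 TPM at 60 min. HNRNPA2B1 had 837, 427 and 181 TPM in the same order. Without the Ribo-Zero library their log2 differences changed sign, to 0.72 for HNRNPD and 0.04 for HNRNPA2B1.

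The ratio of primary to mature RNA was lower in total than in 60 min RNA for all 10 genes, where 71.2% of all genes were lower and 0.472% higher (limma, 13757 genes). The median log2 difference was -3.56 over the 10 genes and -2.19 over all genes. Here all 10 stayed lower after centring on the library median too, where 20.8% of all genes were lower and 14.4% higher. HNRNPA1 had the largest difference: its unspliced share was 0.291%, 0.473% and 0.375% in total RNA and 11.1%, 9.49% and 8.44% at 60 min, a log2 difference of the ratio of -4.79 ± 0.280 (SE; adjusted p = 3.1e-09, limma). HNRNPU had the smallest, -3.05 ± 0.236 (SE; adjusted p = 3.81e-08, limma), with unspliced shares of 0.677%, 1.12% and 0.917% in total RNA. HNRNPD in the Ribo-Zero library was the highest share of any of the 10 in total RNA, at 3.56%.

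Per the file headers, the authors turned total RNA into copies per cell with spike-in RNAs. For the 10 genes these copies had the same order as the TPM of the same library, but were not strictly proportional to them. The 10 genes summed to 446 mature copies per cell with poly(A) selection, 1401 after RNase H and 626 after Ribo-Zero, which is 0.588%, 0.389% and 0.217% of all mature copies. Since the scale differed between methods, only the order within a library is compared. HNRNPA1 led in all 3, with 96.9, 339 and 143 copies, and HNRNPC was next, with 67.9, 228 and 117. HNRNPM, the lowest in 2 libraries, had 16.1, 40.2 and 12.8 copies. HNRNPD moved most in the order, with rank 5 of the 10 by poly(A), 7 by RNase H and 10 by Ribo-Zero, where it had 8.30 copies. The genes of ranks 4 to 6 in the poly(A) library, HNRNPH1, HNRNPD and HNRNPK, lay at 39.2, 39.0 and 38.9 copies, an order that single libraries cannot settle. Primary copies were far fewer, 0.157 to 0.502 in the poly(A) library, with HNRNPL highest at 0.502 and HNRNPA1 next at 0.431.

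In the authors' deposited table of rates, all 10 genes stood in the same cluster, c1, 1 of 7 clusters that their k-means sorting made from 6 measures and one that held 14.1% of the 14206 multi-exon genes. The median of the 10 lay at the 99.1 percentile of the translation score and at the 98.8 percentile of copies per cell in the authors' deposited table. The degradation score lay at the 23.2 percentile in median, from 6.12 for HNRNPC, the most stable by this score, to 44.0 for HNRNPU. Processing scores in the authors' deposited table lay at the 76.6 (HNRNPD) to 97.8 (HNRNPA1 and HNRNPH1) percentile, so these genes counted among those with high gene-level processing rates. Location differed among the genes: for the cytoplasmic over nuclear ratio of the authors' deposited table, HNRNPH1 was at the 7.41 percentile, HNRNPD at 14.0 and HNRNPDL at 16.04, whereas HNRNPM was at 86.1, HNRNPA1 at 83.4 and HNRNPL at 83.3. For the polysomal over cytosolic ratio, HNRNPU and HNRNPM were lowest in the authors' deposited table, at the 3.45 and 5.29 percentile, and HNRNPC was highest, at 76.2. Copies, processing and degradation rest on the same libraries as the TPM above, so these values are not independent of them.

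Introns were described by their excised share, the authors' theta: reads that cross the spliced junction as a share of these reads and reads that run over its splice sites. The deposited shares are the authors' means over 3 libraries, for introns with over 5 reads in all of them, and have no SD or depth of their own, so no test was made. The median over the 132 introns was 48.6%, 47.5%, 61.6%, 74.7% and 78.7% at 7.5, 15, 30, 45 and 60 min, and that over all 21782 introns was 54.2%, 57.9%, 69.6%, 80.6% and 84.4%. The authors sorted introns by their course into slow, medium and fast classes. Of the 132 introns 44 were slow, or 33.3%, where 17.7% of all introns were, and 27 were fast, or 20.5%, where 39.4% of all were. At 60 min 15 of the 132, or 11.4%, were under 50% excised, where 2.95% of all introns were. The sets were not matched for expression, and a limit of over 5 reads is met more easily by junctions of abundant genes such as these.

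Introns that share a splice site share reads, and 47 of the 132 did. Of the other 85 introns 21, or 24.7%, were slow, and 6, or 7.06%, were under 50% excised at 60 min. The slow introns were not spread evenly over the genes. HNRNPH1 held 12 slow introns of 18, HNRNPDL 5 of 7 and HNRNPL 6 of 13, whereas HNRNPK held 2 of 19, HNRNPC 2 of 12 and HNRNPA1 2 of 11. HNRNPH1 and HNRNPL held 8 and 4 of the 15 introns under 50% at 60 min, and HNRNPA1, HNRNPA2B1 and HNRNPDL held 1 each. Without HNRNPH1, 32 of 114 introns were slow, or 28.1%.

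Introns of the HNRNP genes often had a lower excised share after 15 than after 7.5 min of labelling. This held for 84 of 132, or 63.6%, where 38.8% of all introns had it, and for 133 of the 250 introns of the other hnRNP proteins. It was uneven among the genes: 11 of 12 introns of HNRNPA2B1 and 10 of 11 of HNRNPA1 were lower at 15 min, but 1 of 14 of HNRNPU and 3 of 12 of HNRNPC. The shares are authors' means without error.

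**Figure D3:**
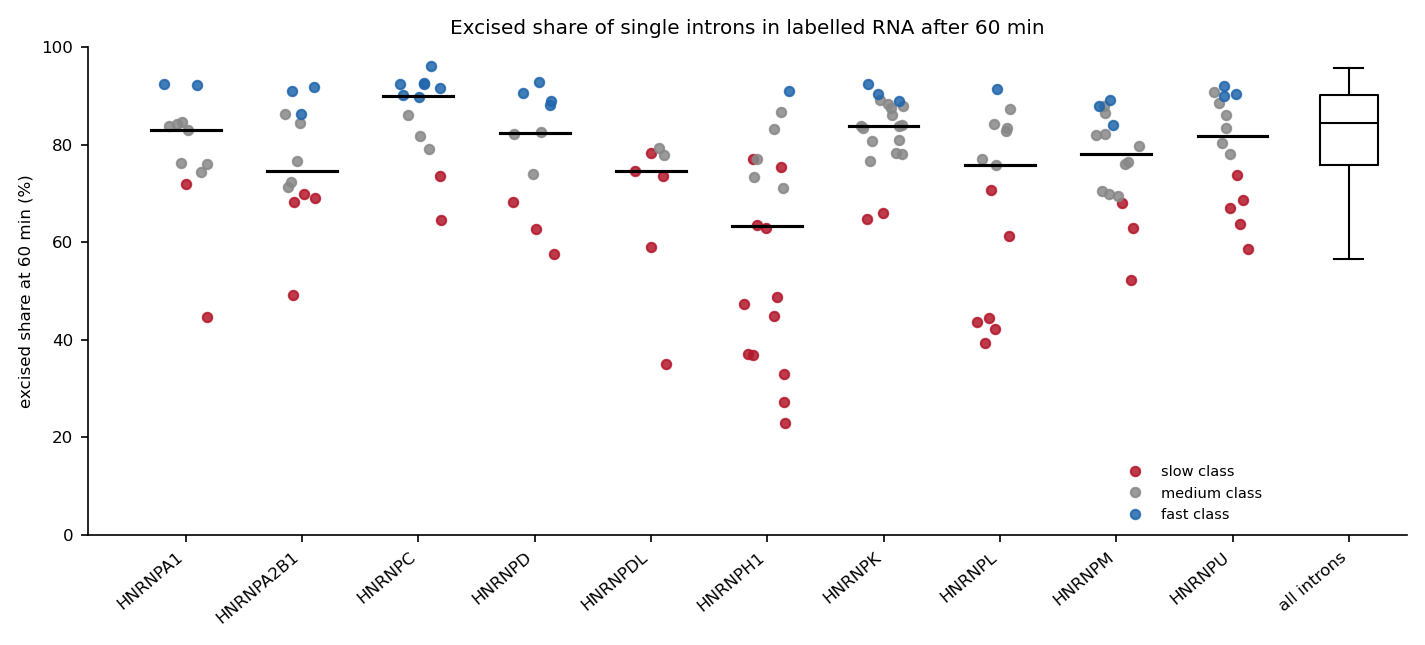
Excised share (%) of each listed intron of the HNRNP genes in RNA labelled for 60 min, coloured by the authors' slow, medium and fast classes; black lines are gene medians and sideways scatter is for visibility. The box at the right gives all introns (quartiles, whiskers from the 5th to the 95th percentile); HNRNPH1 has 8 introns below 50% and HNRNPL 4.

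HNRNPH1, on the minus strand of chromosome 5, had the 3 least excised introns of all 132. The lowest was the 945-base intron at chr5:179045325-179046269 (hg19, counted from 1), between coding exons in GENCODE 29. Its excised share was 29.1%, 20.3%, 20.4%, 23.8% and 23.0% at 7.5, 15, 30, 45 and 60 min, so it was no higher at the last time than at the first. Only 0.161% of all introns had a lower share at 60 min. The neighbouring 1484-base intron at chr5:179046409-179047892 had 27.3% at 60 min. The 2568-base junction at chr5:179045325-179047892, which skips the 139-base exon between these introns, had 33.0%. Upstream, the 1639-base intron at chr5:179048399-179050037 and the 206-base intron at chr5:179048037-179048242 had 36.9% and 37.0% at 60 min.

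These introns lay next to each other: in 5′ to 3′ order they were the third to the seventh of the 18 listed, and the next intron downstream, of 84 bases, was 71.2% excised at 60 min. The authors' MaxEnt scores of the sites, where higher is closer to the usual splice site, were 6.92 (5′) and 4.69 (3′) for the 945-base intron and 5.13 and 1.92 for the 206-base intron, whose 3′ site is printed above. Medians over all introns were 8.76 and 8.72. Toward the 3′ end of the gene the 650-base and 802-base introns, which share a 3′ site, had 5′ scores of -2.05 and excised shares of 48.8% and 45.0% at 60 min. HNRNPH1 had the lowest unspliced share of the 10 genes at 7.5 min and yet held their least excised introns. Its median intron was 38.9% excised at 7.5 min and 63.3% at 60 min. For this gene a low unspliced share was thus not a sign of well excised single introns, and why the measures differ was not tested.

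HNRNPL, on the minus strand of chromosome 19, is known to include a cassette exon that leads to decay when its protein is abundant. The 3282-base junction at chr19:39331200-39334481 skips a 70-base exon at chr19:39332253-39332322, whose length is not a multiple of 3. In GENCODE 29 this exon was in 1 transcript of the nonsense-mediated decay type and in 0 protein-coding ones. The excised share of the skipping junction was 27.8%, 15.9%, 17.2%, 28.97% and 39.4% at 7.5, 15, 30, 45 and 60 min. Those of the 2 junctions that include the exon were 42.3% (2159 bases, upstream) and 43.6% (1053 bases, downstream) at 60 min, and the constitutive 111-base intron that follows was at 44.5%.

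Usage of these junctions shifted with labelling time. The authors' psi, here the share of a junction among the junctions of its splice sites, was 88.8%, 84.8%, 49.7%, 49.7% and 56.7% for skipping at 7.5, 15, 30, 45 and 60 min. The mean psi of the inclusion junctions was 5.88%, 8.10%, 33.7%, 33.2% and 27.6% at the same times. Psi of skipping was thus highest at the 2 earliest times and that of inclusion at 30 min and later, but skipping stayed above inclusion at each time. These psi are not complementary. The skipping junction is set against both inclusion junctions, and each inclusion junction shares a splice site with the skipping junction alone. The 3′ site of the 70-base exon scored 1.91, and the shared 3′ site downstream of it scored 14.9. Mature HNRNPL TPM stepped up between 15 and 30 min as well, as given above; whether the 2 steps are linked was not tested.

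**Figure D4:**
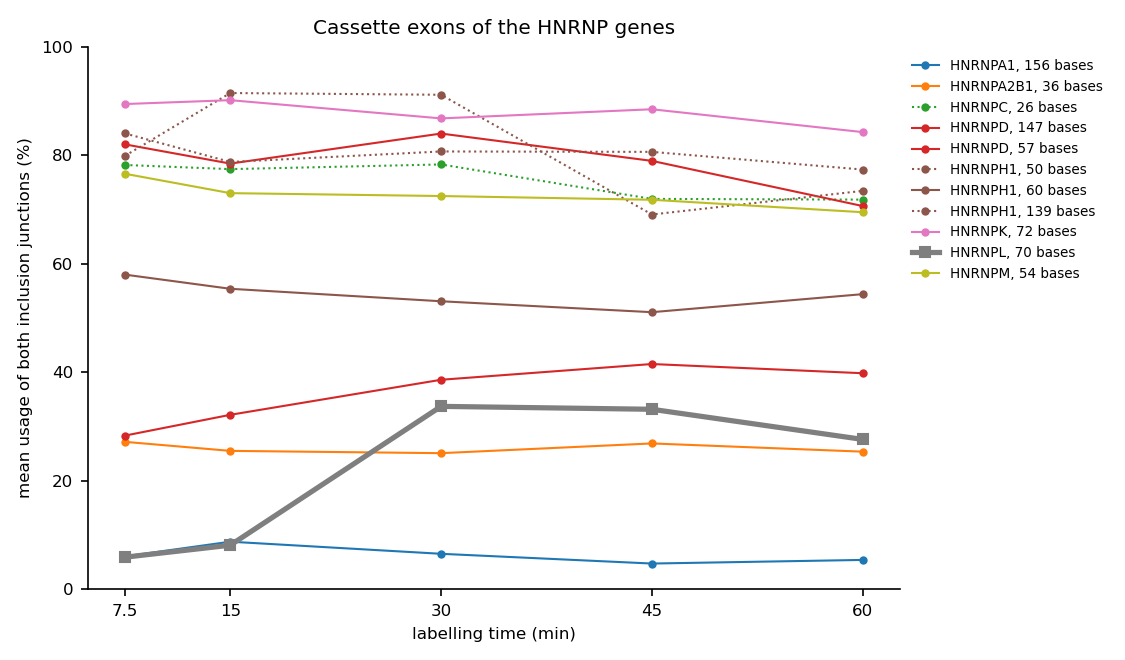
Mean usage (psi, %) of the junctions that include each of the 11 cassette exons of the HNRNP genes that GENCODE 29 annotates, against labelling time in minutes; lines are authors' means over 3 libraries without error, and dotted lines mark exons other than that of HNRNPL whose length is not a multiple of 3. The 70-base exon of HNRNPL moves most, from 5.88% at 7.5 min to 33.7% at 30 min.

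Of 11 annotated cassette exons in 8 of the genes, 2 had higher and 9 lower mean inclusion at 60 than at 7.5 min. The other one that was higher, the 147-base exon of HNRNPD, had 39.8% at 60 min and 28.3% at 7.5 min. That exon and the 57-base exon of HNRNPD (70.7% at 60 min, 82.0% at 7.5 min) distinguish the known AUF1 protein isoforms. The 36-base exon of HNRNPA2B1, which distinguishes B1 from A2, stayed between 25.1% and 27.2% over the 5 times. The 156-base exon of HNRNPA1, specific to its longer protein, lay between 4.71% and 8.74%. The 139-base exon of HNRNPH1 between its least excised introns had 73.5% at 60 min and 79.9% at 7.5 min, with 91.5% at 15 min. None of these differences has a replicate check.

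HNRNPDL, HNRNPA1 and HNRNPA2B1 shared a feature: the least excised intron of each was the last one listed and lay in the 3′ UTR of the protein-coding transcripts that carry it in GENCODE 29. Splicing of a 3′ UTR intron can mark a transcript for nonsense-mediated decay. In GENCODE 29, however, each of these introns was in 0 transcripts of the nonsense-mediated decay type, and decay was not tested. In HNRNPDL the 1153-base intron at chr4:83346037-83347189 (minus strand) was 22.7%, 11.6%, 16.4%, 19.3% and 35.1% excised at 7.5, 15, 30, 45 and 60 min, and the 6 introns before it were 59.0% to 79.4% excised at 60 min. Its psi was 92.0%, 97.0%, 74.8%, 51.1% and 68.8% at the same times, lowest at 45 min.

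In HNRNPA1 the last intron, 231 bases at chr12:54678102-54678332 (plus strand), was 44.8% excised at 60 min and 46.3% at 7.5 min, whereas the other 10 were 71.9% to 92.4% excised at 60 min. In HNRNPA2B1 the last intron, 156 bases at chr7:26231959-26232114 (minus strand), was 49.1% excised at 60 min and 49.9% at 7.5 min, whereas the other 11 reached 68.3% to 91.8%. Both 5′ sites, printed above, end in GTaagt and scored 9.66 and 10.2, above the 5′ median of all introns, and the 3′ sites scored 8.23 and 6.57, below the 3′ median of 8.72. HNRNPD also ended in a slow 3′ UTR intron, of 1149 bases, at 62.8%, but its least excised intron was one of 1861 bases between coding exons, at 57.7%. Of the 5 introns placed only in 3′ UTRs, 4 were slow, and the exception was the last intron of HNRNPH1, 86.8% excised at 60 min.

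**Figure D5:**
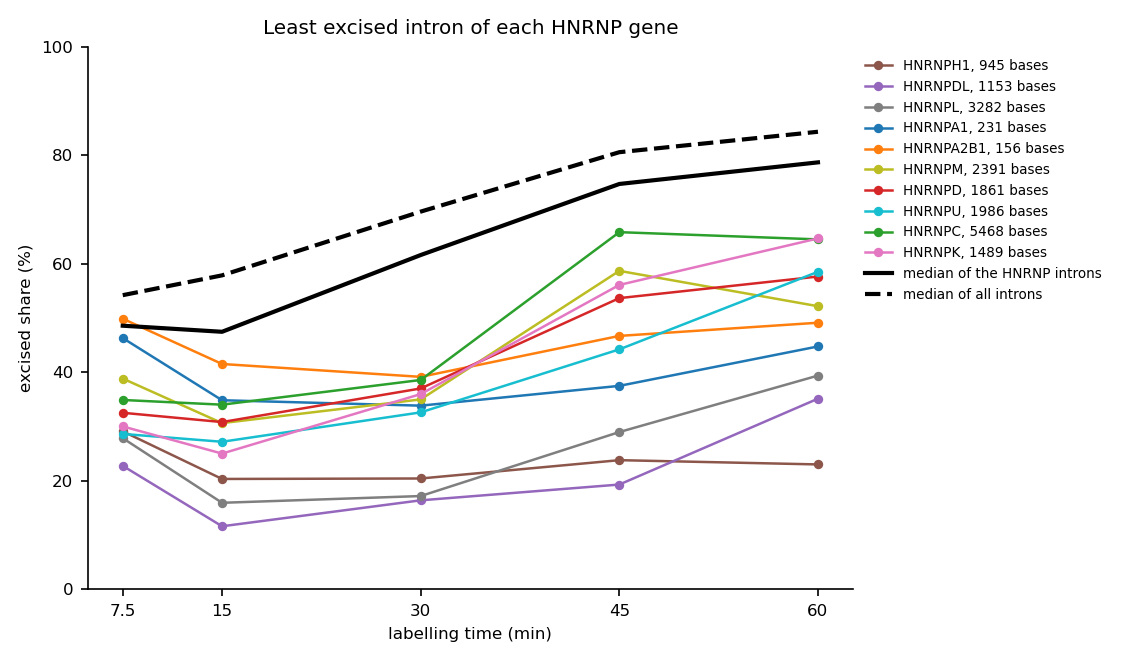
Excised share (%) against labelling time in minutes for the least excised intron of each HNRNP gene, with the medians of the 132 HNRNP introns (solid black) and of all introns (dashed); values are the authors' means over 3 libraries without error. The HNRNPH1 intron stays at 20.3% to 29.1%, and every gene's least excised intron lies below both medians from 15 min on.

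The other genes had milder lows at 60 min. In HNRNPU, on chromosome 1, it was the 1986-base intron, at 58.5%, with a 3′ site score of 2.98. That intron was kept in 2 GENCODE 29 transcripts. Every intron with sequence was kept in some such transcript, since letters were read only there. Its 3′ site, that of the 1986-base intron, has 9 pyrimidines in the 18 bases before AG, the fewest of the 41 introns with sequence. The 298-base and 295-base introns of HNRNPU start with GC and had 5′ scores of 1.51 and 3.32, yet were 90.3% and 88.6% excised. In HNRNPM it was a 2391-base intron at 52.2%, in HNRNPC a 5468-base 5′ UTR intron at 64.5% and in HNRNPK a 1489-base intron at 64.7%, whose 3′ site scored 0.09.

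By class, slow introns of the 10 genes had a median length of 914.5 bases, against 591 for the fast ones; over all introns these medians were 1373 and 1234 bases. Median 5′ scores were 8.91 for slow and 8.40 for fast introns of the 10 genes, and median 3′ scores were 8.31 and 9.08. Over all introns the 5′ medians were 8.65 for slow and 8.83 for fast introns, the other way round, and the 3′ medians were 8.61 and 8.79. The median GC content was 37.5% in slow and 35.4% in fast introns of the 10 genes, and 44.5% and 40.9% over all introns. The slow class of the 10 genes held 17 of the 33 introns that the authors classed as alternative, where the slow class of all introns held 439 of 1204, and 25% of the 132 introns were so classed, where 5.53% of all introns were. These sets were not matched for expression.

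The letters that each protein is known to bind were counted on the sense strand, overlaps included, in the least excised intron with sequence of 5 of the genes and in 30 other HNRNP introns with sequence. The 1053-base HNRNPL intron held CACA 6 times, or 5.70 per kilobase, where the median of the others was 1.70 and 2 were denser. All 8 windows of the same length held it, 2 of them at least as many times (at most 7). The 945-base HNRNPH1 intron held GGGG 2 times (75% of 12 windows held it, 7 at least as many times), and 11 of the 30 other introns were denser. The HNRNPA1 intron held TAGG 0 times (52.6% of 78 windows of its length held it), and the HNRNPA2B1 intron 1 time (41.2% of 119). Of the 30 others, 25 were denser than the HNRNPA1 intron and 5 than the HNRNPA2B1 intron. The HNRNPDL intron held ATTTA 5 times (66.7% of 6 windows held it, at most 3 times), and 4 of the 30 others were denser. These matches are descriptions of letters, not of binding, and all introns compared are ones that some annotated transcript keeps.

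The other hnRNP proteins, 29 genes such as HNRNPF, PTBP1 and SYNCRIP, were counted in the same way. In mature RNA 11 of 29 were higher at 60 than at 7.5 min and 0 lower, where 15.8% of all genes were higher and 4.21% lower. The highest were HNRNPH2 (log2 difference 1.44), HNRNPF (1.37) and FUBP1 (1.34). In primary RNA 23 of 26 tested were lower and 0 higher, where 75% of all genes were lower and 0.635% higher. PTBP2 (-2.26), SYNCRIP (-2.26) and HNRNPH2 (-1.84) were lowest. The ratio was lower for 26 of 27, where 62.8% of all genes were lower. HNRNPH2 (-3.76) and HNRNPF (-3.20) were among the lowest, beside HNRNPUL2, whose primary RNA was listed at 0 at 60 min. In total against 60 min RNA, mature levels were lower for 13 of 29 and higher for 0, where 40.1% of all genes were lower and 5.24% higher. HNRNPA0 (-1.93) and PCBP1 (-1.77) were among the lowest. The ratio was lower for 26 of 27, where 71.2% of all genes were lower, with NONO (-4.69), RALY (-4.52) and HNRNPAB (-4.37) lowest. These are limma calls at an adjusted p under 0.05 without scaling of the libraries, and are to be read relative to the shift of all genes. Of the 250 listed introns of the other hnRNP proteins 73, or 29.2%, were slow, where 17.7% of all introns were.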

How the data were processed

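RNA of HEK293 cells was measured in 15 labelled and 3 total libraries. The authors deposited TPM per gene: per the submitters' processing notes, Bowtie 1.0.1 and RSEM 1.2.11 were used with hg19, and the GENCODE 19 annotation, per the file headers, was extended by a locus-wide isoform (primary), mature being the sum of the other isoforms. TPM carry no depth, so no interval for counting error was possible. The authors deposited copies per cell for each total library, and log10 mean copies. Per the file headers, excised shares (theta) and psi are fractions from junction reads counted with bam2ssj and averaged over 3 libraries by the authors, splice site scores are MaxEnt scores, intron length is deposited as log10, and processing, degradation, location and translation are centred scores used here by percentile.

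Identifiers were paired with symbols from GENCODE 29 (82.1% of 63568 matched, all 10 genes among them). Levels were compared on log2(TPM + 1) for genes averaging 1 TPM or more, and the primary to mature ratio with 0.1 added to both, genes also at 0.1 primary TPM, with limma 3.58.1 in R 4.3.3 (empirical Bayes) and Benjamini-Hochberg adjustment over all genes at 0.05. Labelled comparisons used 15 libraries, comparisons with total RNA all 18. A log2 difference on this scale understates that of low genes. The fits were tested on simulated data, with changes given to genes drawn from all those tested. At 60 against 7.5 min a log2 change of 1 was recovered for 14.9% of changed genes in mature RNA, 20.9% in primary RNA and 5.97% for the ratio. In total against 60 min RNA it was recovered for 17.9% in mature RNA and 2.99% for the ratio. A gene that did not pass can thus not be read as unchanged.

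Places and letters of introns came from GENCODE 29 transcripts (GRCh38): all 132 introns matched by exact length at a constant offset per gene, and 41 had sequence there, each within 1e-05 of the deposited GC fraction. Coordinates are the authors' (hg19). The 10 genes, the gene lists and the tests were chosen with earlier results of these data known. All 10 genes were named in each comparison, of the other hnRNP list the 3 highest and 3 lowest called log2 differences, and of introns the lowest of each gene and the 5 lowest overall; 1 gene of the other hnRNP list that this rule names is not reported here. Genes and introns named outside this, the psi courses and the counted letters were chosen after their values were seen. Alternatives tried were the pseudocount, no filter, other scalings, a replicate block and leaving out libraries.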

Additional observations from a re-analysis of the deposited data

How the results depend on the processing

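Values were recomputed under each alternative named with the processing; where a call changed, the cause was not tested. With median-ratio scaling, 60 against 7.5 min gave 3 HNRNP genes higher in mature RNA (1296 of all genes higher, 1307 lower), and rescaling over mature RNA alone gave 3 as well (1612 of all genes higher). Under these 2 scalings the log2 differences of HNRNPM were -0.28 and -0.17 and those of HNRNPA2B1 -0.22 and -0.11. In primary RNA, median-ratio scaling gave 1 higher and 3 lower (all genes 3175 and 3154) and rescaling over primary RNA alone 1 and 3 (all genes 2444 and 3362). HNRNPL was then at 0.65 and 0.48 and HNRNPDL at 0.21 and 0.036, and, with median-ratio scaling, HNRNPM was at 0.11, HNRNPA1 at 0.15 and HNRNPK at 0.031. Centring the ratio gave 1 higher and 1 lower (all genes 1779 and 2071), with HNRNPH1 at 0.78, HNRNPM at 0.37 and HNRNPD at 0.20. In total against 60 min mature RNA, median-ratio scaling gave 3 higher and 0 lower (all genes 2856 and 2517), with HNRNPK at 0.98, HNRNPA1 at 0.67, HNRNPD at 0.64, HNRNPA2B1 at 0.47, HNRNPM at 0.26 and HNRNPDL at 0.24. For the ratio of total against 60 min RNA, all genes higher were 224 with 0.5 TPM added, 127 with no low filter and 1975 when centred, with 2863 lower when centred. Without introns that share a site the median excised share at 60 min was 82.2%.

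Leaving out 1 library at a time gave 3 to 6 HNRNP genes higher in mature RNA at 60 against 7.5 min (all genes 1835 to 2226 higher, 408 to 558 lower). In total against 60 min RNA it gave 3 to 5 lower (all genes 4784 to 7165 lower, 560 to 910 higher). All genes higher were 56 to 117 in primary RNA and 41 to 62 for the ratio of total against 60 min RNA. The mature log2 difference at 60 against 7.5 min ranged from -0.18 to 0.043 for HNRNPC, from -0.10 to 0.33 for HNRNPM, from -0.22 to 0.58 for HNRNPA2B1 and from -0.37 to 0.084 for HNRNPD. The primary one of HNRNPH1 ranged from -0.071 to 0.15. In total against 60 min RNA the mature one ranged from -1.06 to 0.039 for HNRNPA2B1, from -1.16 to 0.72 for HNRNPD and from -0.23 to 0.085 for HNRNPK.

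Libraries of the labelled times share replicate letters, and 18 of 30 correlations of deviations between libraries of the same letter were over 0.1 (range -0.013 to 0.341). The labels do not say what the letters share, so the main tests used no pairing and a replicate block was an alternative. Any deviation that libraries of a letter share was thus left in the spread of the main tests. With a replicate block, mature RNA gave 6 HNRNP genes higher, HNRNPU among them (adjusted p = 0.017, limma), with 3669 of all genes higher and 1090 lower. Primary RNA then gave 9 lower (all genes 11533 lower, 158 higher) and the ratio 10 lower (all genes 9038 lower, 176 higher). The depth behind TPM, excised shares and psi is unknown, which limits how far low values and single introns can be read, and total RNA has 1 library per selection method.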

Other observations

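Among the other hnRNP proteins, weakly excised introns at 60 min included those of SFPQ (32.2%, 2407 bases), NONO (32.2%, 530 bases, 64.8% at 7.5 min), RBMX (34.2%, 633 bases) and EWSR1 (38.4%, 5699 bases). The NONO intron was lower at 60 than at 7.5 min, as the least excised intron of HNRNPH1 was. In HNRNPH3, a relative of HNRNPH1, 7 of 9 listed introns were slow, with a median of 64.1% at 60 min, close to the median of 63.3% for HNRNPH1.

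The HNRNPL intron of 1545 bases at chr19:39334745-39336289 had MaxEnt scores of -13.9 (5′) and -2.69 (3′), far below usual sites, and was 61.3% excised at 60 min, with a psi of 100% at each of the 5 times. In the authors' deposited table, 21 of the 26 other multi-exon hnRNP genes stood in cluster c1, the cluster of all 10 genes described here. That cluster held 14.1% of all multi-exon genes.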
